A study of Mus musculus with 11 samples.

Results

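NF-κB is a family of transcription factors that switches on inflammatory genes, and 43 genes of its pathway and of its inflammatory output were followed here across 4 groups of mouse microglia, the resident macrophages of the brain. The genes were taken from a list of 7 roles, namely secreted cytokines, NF-κB subunits, the inhibitory IκB family, signal adaptors and feedback proteins, inflammasome parts, costimulation and adhesion molecules, and other induced targets. The list was chosen with earlier results of these data known, so the shares called below are descriptive. Of the 43 genes, 40 had a probe on the array that could be paired with their symbol. Il12b, Cd83 and Plaur were not matched and are not analysed here. Il18 was not well above background on any of the 11 arrays and was not tested, so 39 genes were tested among 19572 in all.

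In resting cells the NF-κB dimers are held in the cytoplasm by IκB proteins. Signals from Toll-like, TNF or IL-1 receptors pass through adaptors such as MyD88 to a kinase complex that marks IκB for degradation, and the freed dimers enter the nucleus. Many of the genes they induce, among them Nfkbia and Tnfaip3, encode proteins that shut the pathway down again, so that pathway members and targets overlap. In microglia the pathway is known for the release of TNF, IL-1β and IL-6 and for supplying the transcripts that the NLRP3 inflammasome needs.

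All cells came from C57BL/6N mice. NB_FACS (3 arrays) were microglia of newborn pups of both sexes and A_FACS (2 arrays) microglia of adult females, each sorted by flow cytometry as CD45 intermediate and CX3CR1 high cells after trypsin digestion. NB_Control and NB_Stim (3 arrays each) were newborn microglia grown in mixed glial flasks with 20% medium conditioned by L-929 cells, a source of macrophage colony-stimulating factor, then shaken off for 5.5 h and kept in serum medium for about a day. NB_Stim received 3 recombinant human cytokines during that day, TGF-β1, IL-34 and the chemokine CX3CL1, with 100 ng/mL of each, and NB_Control received none. The study's shaking protocol collects microglia weeks after the brains are taken, so the time since isolation differed as well. Culture, its length, the age of the cells and isolation method therefore changed together between NB_Control and NB_FACS. Age, sex and the handling of the tissue changed together between A_FACS and NB_FACS. By the study's methods adults were killed with carbon dioxide and perfused, and their brains were pressed through a strainer. Newborns were decapitated, with no perfusion named, and their brains were dissociated by pipette. The labels name no inflammatory stimulus for any group. Each array was a separate biological replicate. Replicate 3 of each newborn group was hybridised on slide 2 and the other 8 arrays on slide 1, where both adult arrays lay.

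Levels below are log2 intensities after quantile normalisation of the arrays, in replicate order, and differences are between group means on that scale, where 1 unit is a factor of 2. Adjusted p-values are from limma with Benjamini-Hochberg correction over all 19572 genes, and calls were made below 0.05. The level of a probe cannot be set against that of another probe. The RNA was that of whole cell populations, so fewer cells of a type and less RNA per cell cannot be told apart.

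For 33 of the 43 genes RefSeq promoter windows (GRCm38.p6, 250 bases before to 50 after an annotated start) were at hand, and they were searched on both strands for the κB consensus, the sequence that NF-κB dimers bind, and for the narrower motif GGNNTTTCC, which often overlaps it. The consensus was found in 14 of the 33 genes (42.4%), against 9.55% of all 27025 genes with a window and 8.46% of all 32851 windows of that length. The narrower motif was found in 13 of the 33 (39.4%), against 6.62% of all genes and 5.82% of all windows. Many of the genes were listed because they are known NF-κB targets, so this share also reflects how they were chosen. In 3 of the tested genes a window held at least 2 matches of the consensus, compared with 0.599% of all genes, and the 250 bases before the start are shown for these, 5′ to 3′ on the strand of the gene, with the matches in capitals. Tnfaip3 encodes A20, which removes the ubiquitin chains that carry the signal, Nfkb2 the precursor of the p52 subunit, and Casp4 the caspase that senses lipopolysaccharide inside the cell (called caspase-11 in mice).
Tnfaip3 (chr10:19015411-19015660, minus strand): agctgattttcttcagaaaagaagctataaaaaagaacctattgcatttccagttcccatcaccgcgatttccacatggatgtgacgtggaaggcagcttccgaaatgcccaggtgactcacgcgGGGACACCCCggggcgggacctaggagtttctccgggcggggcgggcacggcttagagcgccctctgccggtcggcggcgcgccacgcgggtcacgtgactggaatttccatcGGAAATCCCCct
Nfkb2 (chr19:46304487-46304736, plus strand): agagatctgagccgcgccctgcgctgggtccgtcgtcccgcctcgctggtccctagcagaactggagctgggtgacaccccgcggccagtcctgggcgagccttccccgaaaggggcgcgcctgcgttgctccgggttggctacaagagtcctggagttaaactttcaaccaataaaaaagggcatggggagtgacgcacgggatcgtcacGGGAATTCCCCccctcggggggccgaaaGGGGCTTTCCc
Casp4 (chr9:5308599-5308848, plus strand): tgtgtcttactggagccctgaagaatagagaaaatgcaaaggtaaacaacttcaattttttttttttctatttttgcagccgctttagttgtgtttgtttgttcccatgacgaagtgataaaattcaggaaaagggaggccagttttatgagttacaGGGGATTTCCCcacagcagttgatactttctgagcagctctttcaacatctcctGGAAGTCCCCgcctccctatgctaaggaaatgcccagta
All 3 genes were lower in NB_Control than in NB_FACS, as given below. A consensus match was found in 8 of the 17 genes that fell in culture and had a window, in 2 of the 5 that rose and in 4 of the 8 that were not called. Absence of a match says only that these letters are not in this window.

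**Figure D1:**
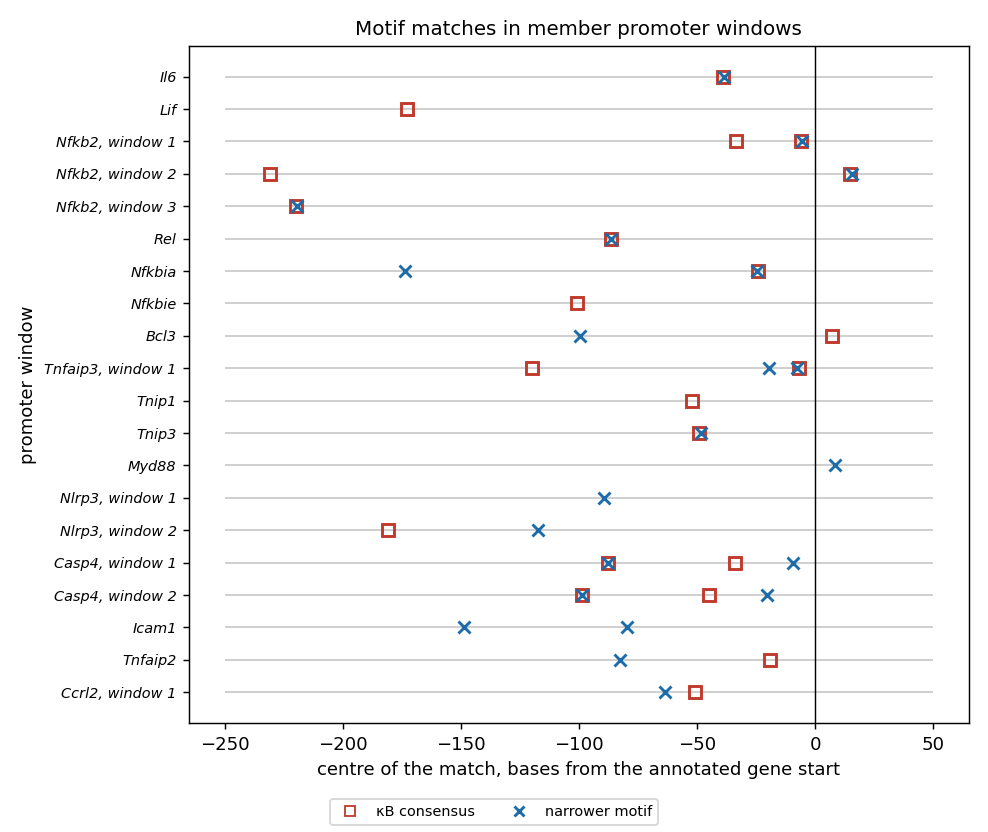
Matches of the κB consensus (squares) and of the narrower motif GGNNTTTCC (crosses) in the 20 promoter windows of member genes that held at least 1. The x axis gives the distance of the centre of each match from the annotated start in bases, and genes with several starts have several windows. Tnfaip3, Nfkb2 and Casp4 each had a window with 2 consensus matches.

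The first comparison asked what the list did when newborn microglia were taken into culture. In NB_Control 27 of the 39 genes differed from NB_FACS, 22 lower and 5 higher (69.2% called, 56.4% lower), where 29.7% of all genes were called, 15.8% higher and 13.9% lower. The median log2 difference of the 39 genes was -1.17, against 0.09 for all genes. All 5 subunits, 4 of 5 IκB genes and the cytokines Tnf, Il1a and Osm fell, together with Tnfaip3, Nlrp3, Icam1, Cd86 and Gpr84 (35.4-fold lower), while Il6, Ptgs2, Tnip3, Irak3 and Casp1 rose. Of the 27 calls 19 were kept under every one of the 24 alternative settings. Within slides 34 of the 39 differences had the same sign on slide 1 and slide 2, among them all 27 that were called. The calls came from these same arrays, so this agreement is not independent support. Slide 2 held 1 array of each newborn group.

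**Figure D2:**
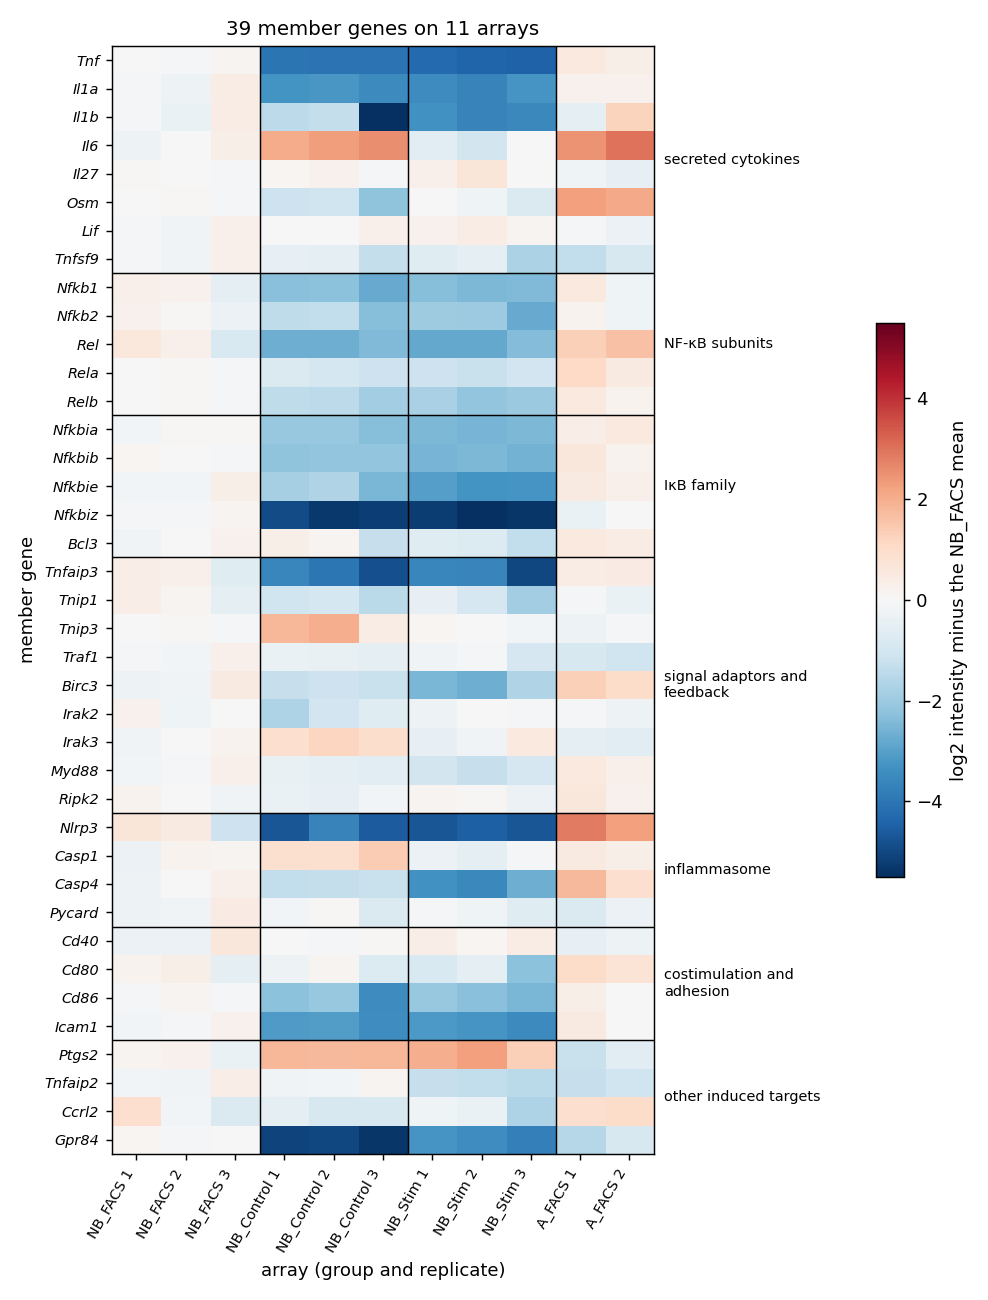
Log2 intensity of the 39 tested genes (top to bottom, by role) on the 11 arrays (left to right), as the difference from the NB_FACS mean of each gene. Blue is lower and red higher than that mean. Most genes are blue in the 6 cultured arrays, with Il6, Ptgs2, Tnip3, Irak3 and Casp1 red in NB_Control.

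Among the secreted cytokines Tnf, the founding member of its family, stood at 14.38, 14.30 and 14.58 in NB_FACS, 10.40, 10.36 and 10.36 in NB_Control, 10.15, 10.02 and 9.99 in NB_Stim and 14.97 and 14.72 in A_FACS. The cultured arrays lay about 4 units below the sorted arrays without any overlap. The culture difference was -4.05, SE 0.13, adjusted p = 1.59e-07, a 16.5-fold fall, the cytokine difference was not called (-0.32, adjusted p = 0.273), and that of the adult cells was 0.42, adjusted p = 0.0609. Without NB_FACS replicate 3 the adult difference was called (0.50, adjusted p = 0.043).

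Il1a, which encodes the alarmin IL-1α, was read by 2 probes that went apart. The first gave 13.95, 13.84 and 14.40 in NB_FACS, 7.45, 7.64 and 6.67 in NB_Control, 7.02, 6.52 and 7.19 in NB_Stim and 15.07 and 14.94 in A_FACS, a culture difference of -6.81, SE 0.28, adjusted p = 5.77e-07 in a fit of all 44749 probes. The second gave 7.97, 7.80 and 8.56, 8.19, 8.16 and 8.51, 8.23, 8.31 and 8.50 and 7.56 and 7.71 in the same groups, with no call (0.18, adjusted p = 0.602). The mean of both probes, which entered the gene-level fit, was 10.96, 10.82 and 11.48 in NB_FACS and 7.82, 7.90 and 7.59 in NB_Control, with a culture difference of -3.32, SE 0.19, adjusted p = 2.57e-06. That value is thus the mean of a large fall and of no called change, and which transcript part each probe reads was not tested. Tnfsf9, the ligand of 4-1BB, showed the same kind of split, with culture differences of 0.13, adjusted p = 0.868 for its first probe and -1.66, adjusted p = 0.015 for its second. In the mean of both Tnfsf9 was not called (-0.76, adjusted p = 0.128).

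**Figure D3:**
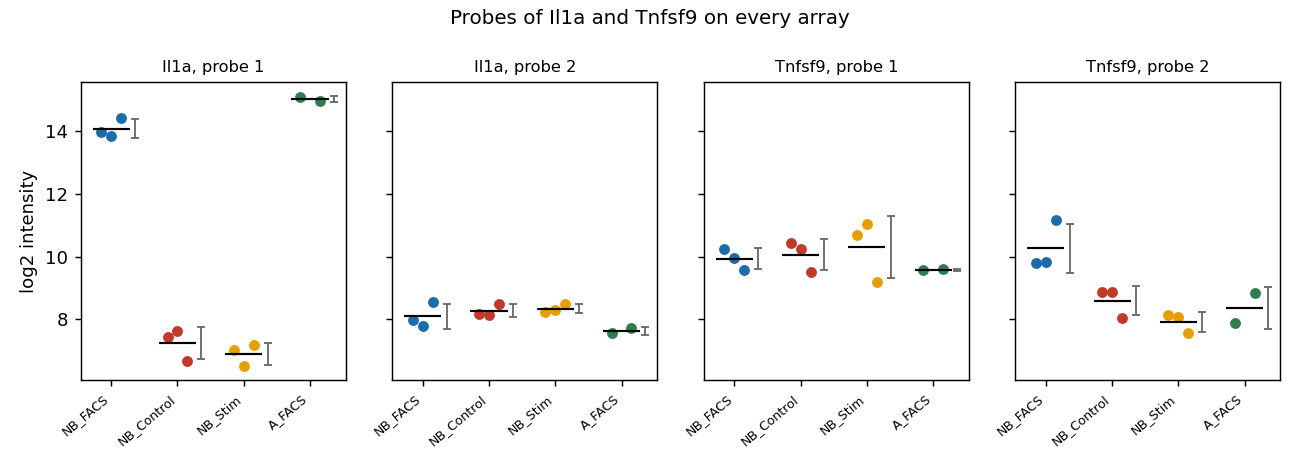
Log2 intensity of each probe of Il1a and Tnfsf9 on every array, with the group mean as a line and ± SD beside it. The first Il1a probe separates sorted from cultured arrays, whereas the second lies between 7.56 and 8.56 on all 11 arrays.

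Il1b, the precursor of IL-1β, was singled out after its values were seen because its replicates lay far apart. It was 13.06, 12.77 and 13.56 in NB_FACS, 11.71, 11.83 and 7.49 in NB_Control, 9.80, 9.45 and 9.58 in NB_Stim and 12.66 and 14.34 in A_FACS. The low array in NB_Control was replicate 3, more than 4 units below the others of its group. With all arrays the culture difference was -2.79, SE 0.99, adjusted p = 0.0594 and was not called, but it was -1.37 (adjusted p = 0.0456) without that replicate, and -3.47 and -3.52 (adjusted p = 0.0415 and 0.0362) without replicate 1 or 2. It was also called with the slide as a block (adjusted p = 0.0412), and within slides it was -1.15 on slide 1 and -6.07 on slide 2, which holds the low array. The cytokine difference depended on the same array and was -0.73, adjusted p = 0.84 over all arrays and -2.15 (adjusted p = 0.0377) without NB_Control replicate 3, with -2.15 within slide 1 and 2.09 within slide 2. Against NB_FACS the stimulated cells were lower (-3.52, adjusted p = 0.0217), a call lost without NB_FACS replicate 1 or 3 or NB_Stim replicate 1 or 2.

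Il6, the gene of the acute-phase cytokine IL-6, moved against most of the list. Its levels were 5.50, 5.78 and 6.12 in NB_FACS, 7.86, 8.11 and 8.34 in NB_Control, 5.16, 4.77 and 5.82 in NB_Stim and 8.28 and 8.80 in A_FACS. NB_Control and A_FACS were both high, without overlap with NB_FACS or NB_Stim. The gene rose in culture (2.30, SE 0.28, adjusted p = 0.000216), fell with the cytokines (-2.85, SE 0.28, adjusted p = 0.000604) and was higher in adult than in newborn sorted cells (2.75, SE 0.32, adjusted p = 0.000325), and these 3 calls were kept under all 24 alternatives. Neither A_FACS against NB_Control (adjusted p = 0.292) nor NB_Stim against NB_FACS (-0.55, adjusted p = 0.174) was called. The latter was called with the replicate block (adjusted p = 0.0496) and with the slide block (adjusted p = 0.0433). It was also called without NB_Stim replicate 3 (-0.84, adjusted p = 0.0305).

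Osm, the gene of oncostatin M, a cytokine of the IL-6 family, was 12.03, 12.07 and 11.89 in NB_FACS, 10.87, 10.90 and 9.80 in NB_Control, 11.96, 11.77 and 11.19 in NB_Stim and 14.25 and 14.07 in A_FACS. It fell in culture (-1.47, SE 0.30, adjusted p = 0.00432) and was highest in the adult arrays (2.16, adjusted p = 0.00163). All 3 NB_Stim arrays lay above the NB_Control arrays, with a difference of 1.11, adjusted p = 0.0857 that was called with the replicate block (adjusted p = 0.0154). Il27 (mean 9.32 ± 0.07 in NB_FACS and 9.42 ± 0.14 in NB_Control, SD, n = 3) and Lif (7.16 ± 0.24 and 7.27 ± 0.16) were not called in any of the 4 main comparisons.

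**Figure D4:**
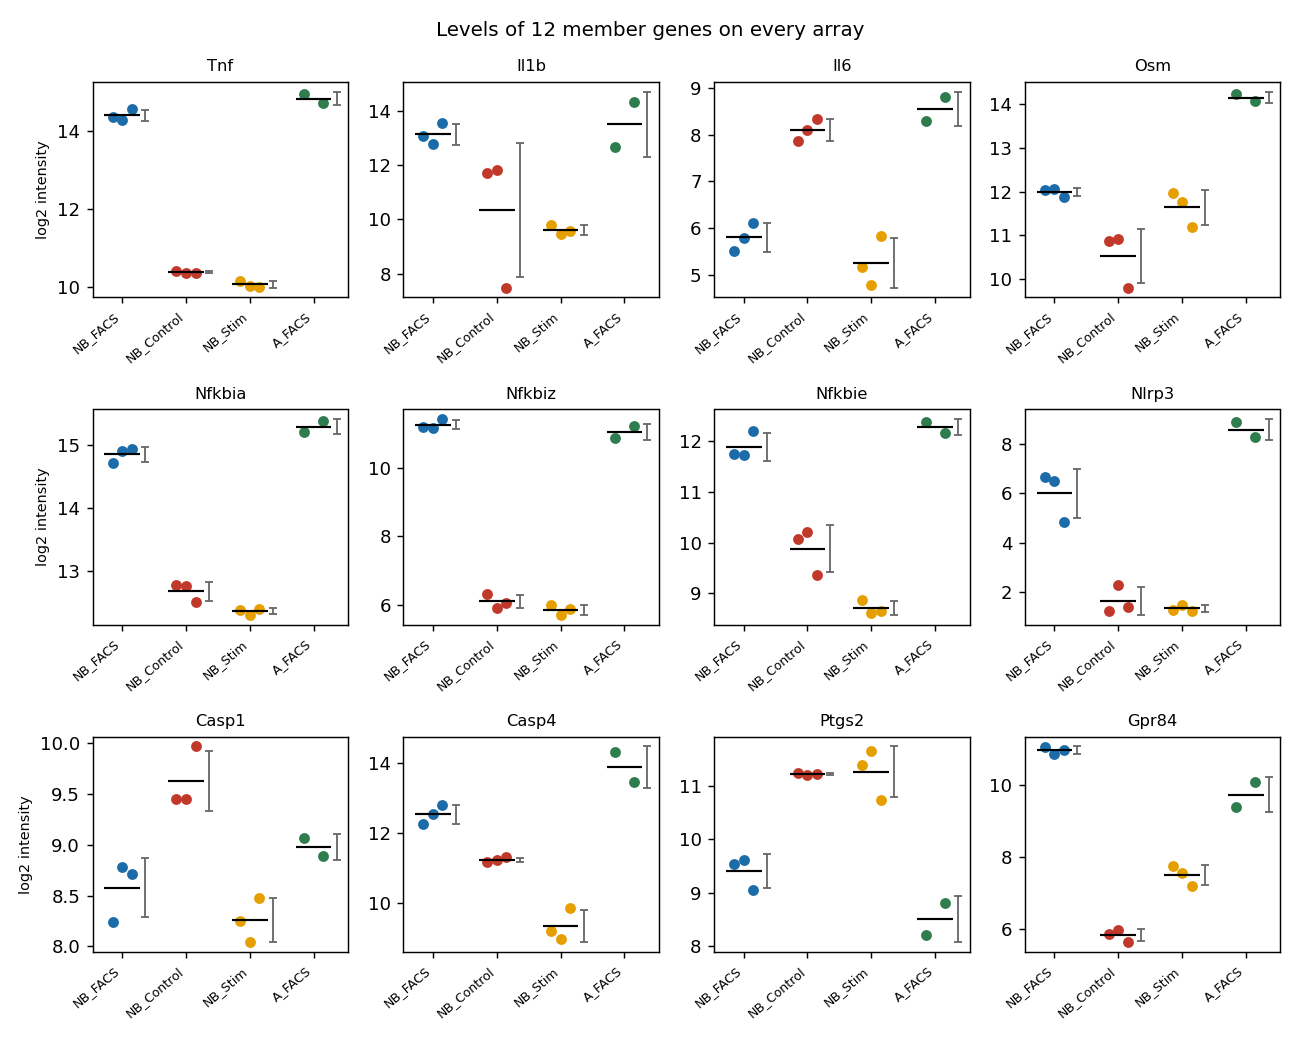
Log2 intensity of 12 of the genes on every array, with the group mean as a line and ± SD beside it. Each panel has its own y axis, which does not start at 0. Tnf, Nfkbia, Nfkbiz and Nlrp3 are low in both cultured groups, Il6 and Casp1 fall from NB_Control to NB_Stim, and Gpr84 rises.

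The 5 NF-κB subunits all fell in culture, with a median of -1.70. Rel encodes c-Rel, the subunit best known from immune cells, and stood at 10.11, 9.83 and 8.70 in NB_FACS, 6.85, 6.85 and 7.13 in NB_Control, 6.72, 6.72 and 7.15 in NB_Stim and 10.84 and 11.18 in A_FACS. Replicate 3 of NB_FACS was more than 1 unit below the other sorted newborn arrays but still above every cultured array. Its culture difference was -2.60, SE 0.32, adjusted p = 0.000228. It was higher in adult cells (1.46, adjusted p = 0.0165), a call lost without A_FACS replicate 1 (1.63, adjusted p = 0.0648) or 2 (1.30, adjusted p = 0.101).

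Nfkb1, which gives p105 and p50, was 11.60, 11.53 and 10.79 in NB_FACS, 9.0, 9.04 and 8.53 in NB_Control, 8.97, 8.84 and 8.86 in NB_Stim and 11.83 and 11.06 in A_FACS, and its 3 probes gave culture differences of -2.64, -2.40 and -2.31. Nfkb2 was 13.62, 13.48 and 13.09 in NB_FACS, 11.99, 12.04 and 11.05 in NB_Control, 11.46, 11.42 and 10.61 in NB_Stim and 13.60 and 13.17 in A_FACS. For both the sorted arrays stayed above every cultured array, with culture differences of -2.45, adjusted p = 0.00011 and -1.70, adjusted p = 0.00269. Relb (-1.59, adjusted p = 0.000113) and Rela (-0.96, adjusted p = 0.00181), the gene of the p65 subunit, fell as well. Between NB_Stim and NB_Control limma called 0 of the 5 subunits, where 3.40% of all genes were called. With 5 genes this count cannot be told apart from that share. Of the 5, 1 had an unadjusted p under 0.05 in limma (Relb, -0.41, adjusted p = 0.305). Rela was higher in A_FACS (0.79, adjusted p = 0.0144), but not under 75th percentile scaling (0.47, adjusted p = 0.115) or without A_FACS replicate 1 (0.49, adjusted p = 0.142).

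The IκB family holds the inhibitors of the dimers and, with Nfkbiz and Bcl3, nuclear members that act on transcription. Nfkbiz, whose product IκBζ is needed for a late group of targets, was 11.19, 11.14 and 11.40 in NB_FACS, 6.32, 5.94 and 6.07 in NB_Control, 6.01, 5.72 and 5.89 in NB_Stim and 10.86 and 11.20 in A_FACS. Sorted and cultured arrays were about 5 units apart, a culture difference of -5.13, SE 0.16, adjusted p = 1.59e-07. These are means of 2 probes, of which the second was above background on 0 of 3 arrays in each cultured group, so the gene-level value rests in part on background. The first probe, above background on all 11 arrays, gave a culture difference of -4.58, SE 0.30, adjusted p = 7.91e-06. The second was at least 51.5-fold higher in NB_FACS than in NB_Control (adjusted p = 2.58e-06). Nfkbiz was not called in adult against newborn sorted cells (-0.21), where the probes differed in sign (0.43 and -0.85).

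Nfkbia, which encodes IκBα, was 14.70, 14.91 and 14.93 in NB_FACS, 12.77, 12.75 and 12.50 in NB_Control, 12.37, 12.30 and 12.39 in NB_Stim and 15.21 and 15.37 in A_FACS. Nfkbib, the gene of IκBβ, was 13.00, 12.88 and 12.75 in NB_FACS, 10.67, 10.69 and 10.73 in NB_Control, 10.33, 10.41 and 10.29 in NB_Stim and 13.50 and 13.06 in A_FACS. For both genes all cultured arrays lay below all sorted arrays, with culture differences of -2.17, SE 0.13, adjusted p = 3.06e-06 for Nfkbia and -2.18, SE 0.14, adjusted p = 5.07e-06 for Nfkbib. Their NB_Stim arrays all lay slightly below NB_Control, with differences of -0.32, adjusted p = 0.268 and -0.35, adjusted p = 0.267, and neither was called, although Nfkbia was under 75th percentile scaling (-0.59, adjusted p = 0.0332).

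Nfkbie, the gene of IκBε, fell in 2 steps. It was 11.74, 11.72 and 12.21 in NB_FACS, 10.06, 10.22 and 9.36 in NB_Control, 8.86, 8.61 and 8.66 in NB_Stim and 12.39 and 12.16 in A_FACS, with no overlap between the 3 newborn groups. The culture difference was -2.01, SE 0.23, adjusted p = 0.000157 and the cytokine difference -1.17, SE 0.23, adjusted p = 0.0253. The second call was lost without NB_Control replicate 1 (-1.08, adjusted p = 0.107) or 2 (-1.0, adjusted p = 0.102) and without any single NB_Stim array (-1.13 to -1.25, adjusted p = 0.0609 to 0.102). Bcl3 was not called in the 4 main comparisons. Its NB_Control arrays were 12.16, 11.99 and 10.57, and without replicate 3 it was lower in NB_Stim (-1.18, adjusted p = 0.0277).

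Among the adaptors and feedback genes Tnfaip3 fell most. It was 11.09, 10.997 and 10.04 in NB_FACS, 7.13, 6.74 and 5.87 in NB_Control, 7.12, 7.08 and 5.69 in NB_Stim and 11.10 and 11.14 in A_FACS, with replicate 3 about 1 unit lower in each newborn group. The culture difference was -4.13, SE 0.45, adjusted p = 0.000116, and the second of its 2 probes, above background on all arrays, gave -4.09, SE 0.22, adjusted p = 2.73e-06. The first was above background on 1 of 3 arrays in each cultured group, so its value of -4.17 is in part a difference from background. Birc3, which encodes the ubiquitin ligase cIAP2, was 9.56, 9.66 and 10.35 in NB_FACS, 8.60, 8.74 and 8.63 in NB_Control, 7.33, 7.16 and 8.20 in NB_Stim and 11.19 and 10.89 in A_FACS. It fell in culture (-1.20, adjusted p = 0.0101) and its cytokine difference was -1.09, adjusted p = 0.0804, called with the replicate block (adjusted p = 0.027). Its adult rise (1.18, adjusted p = 0.0255) lost its call without any of A_FACS replicates 1 and 2 and NB_FACS replicates 1 and 2 (adjusted p = 0.0648 to 0.175).

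The 2 feedback genes that rose in culture were Tnip3, whose product binds A20, and Irak3, which encodes the inhibitory kinase IRAK-M. Tnip3 was 7.24, 7.28 and 7.13 in NB_FACS, 9.05, 9.20 and 7.61 in NB_Control, 7.32, 7.22 and 7.06 in NB_Stim and 6.94 and 7.09 in A_FACS. Irak3 was 7.18, 7.39 and 7.59 in NB_FACS, 8.30, 8.57 and 8.34 in NB_Control, 6.95, 7.21 and 7.94 in NB_Stim and 6.90 and 6.78 in A_FACS. For both NB_Control was the highest group, above all other arrays, with culture differences of 1.40, adjusted p = 0.0122 and 1.02, adjusted p = 0.00887. Without NB_Control replicate 1 the rise of Tnip3 was no longer called (1.19, adjusted p = 0.0523). With the cytokines Irak3 fell (-1.04, SE 0.24, adjusted p = 0.046), a narrow call that was lost in 14 alternatives, among them without any single array other than NB_Stim replicate 3. Tnip3 was -1.42, adjusted p = 0.0614 in that comparison, and was called with the replicate block (adjusted p = 0.0286) and without NB_Control replicate 3 (-1.91, adjusted p = 0.000298).

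Of the other adaptors Irak2, a kinase of the Toll-like receptor complex, fell in culture (-1.13, adjusted p = 0.00511) and its cytokine difference was 0.99, adjusted p = 0.0575, called without NB_Control replicate 3 (1.21, adjusted p = 0.0222). Myd88 (-0.50, adjusted p = 0.0417) and Tnip1 (-1.17, adjusted p = 0.0338) fell by little or with a wide error, and their calls were lost in 14 and 9 of the 24 alternatives, which included leaving out any single NB_Control array. The cytokine difference of Myd88 (-0.58, adjusted p = 0.0952) was called with the replicate block (adjusted p = 0.0488). Traf1 was lower in adult than in newborn sorted cells (-1.0, adjusted p = 0.0159), but not without A_FACS replicate 1 (-1.11, adjusted p = 0.0625) or 2 (-0.90, adjusted p = 0.0954). Ripk2 was not called in the 4 comparisons, although 1 of its 3 probes was in culture (-0.90, adjusted p = 0.0493) and another was in adult cells (0.63, adjusted p = 0.0319).

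The inflammasome genes moved apart from each other. Nlrp3, the sensor, was 6.64, 6.48 and 4.85 in NB_FACS and 8.86 and 8.25 in A_FACS, and not well above background on any of the 6 cultured arrays, where it read 1.27, 2.30 and 1.40 in NB_Control and 1.30, 1.51 and 1.27 in NB_Stim. Its level was at least 12.9-fold higher in NB_FACS than in NB_Control (adjusted p = 8.42e-05) and at least 13.2-fold higher than in NB_Stim (adjusted p = 5.58e-05), with the lowest signal well above background as the bound. After normexp background correction, which lifts low signals, the differences were -1.06 and -1.12 and still called. The adult arrays were higher than the newborn sorted ones (2.56, adjusted p = 0.00573), a call lost without A_FACS replicate 1 (2.27, adjusted p = 0.0658). Casp1, which encodes the protease that cuts pro-IL-1β, was 8.24, 8.78 and 8.71 in NB_FACS, 9.46, 9.45 and 9.97 in NB_Control, 8.25, 8.04 and 8.47 in NB_Stim and 9.07 and 8.89 in A_FACS. It rose in culture (1.05, SE 0.20, adjusted p = 0.00338) and fell with the cytokines (-1.37, SE 0.20, adjusted p = 0.00586), to a level not called against NB_FACS (-0.32, adjusted p = 0.275).

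Casp4 was 12.26, 12.53 and 12.80 in NB_FACS, 11.16, 11.21 and 11.30 in NB_Control, 9.19, 8.97 and 9.84 in NB_Stim and 14.30 and 13.46 in A_FACS, and no array of a group overlapped with another group. The order A_FACS, NB_FACS, NB_Control and NB_Stim held with each step called, at 1.35, adjusted p = 0.0111 for the first, -1.31, adjusted p = 0.00482 for the second and -1.89, adjusted p = 0.00487 for the third. The first step lost its call without A_FACS replicate 1 (0.94, adjusted p = 0.123). Pycard, the gene of the adaptor ASC that joins sensor and protease, was 12.32 ± 0.39 in NB_FACS and 12.02 ± 0.43 in NB_Control (SD, n = 3) and was not called in the 4 comparisons.

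Of the 4 costimulation and adhesion genes tested 2 fell in culture and none was called higher. Icam1, which encodes a ligand of leukocyte integrins, was 13.98, 14.01 and 14.37 in NB_FACS, 11.01, 11.05 and 10.70 in NB_Control, 10.95, 10.86 and 10.61 in NB_Stim and 14.60 and 14.09 in A_FACS. Cd86, a ligand of CD28 on T cells, was 9.73, 9.96 and 9.72 in NB_FACS, 7.53, 7.73 and 6.35 in NB_Control, 7.72, 7.49 and 7.29 in NB_Stim and 10.11 and 9.78 in A_FACS. For both the cultured arrays were below all sorted arrays, with culture differences of -3.20, SE 0.19, adjusted p = 2.67e-06 and -2.60, SE 0.32, adjusted p = 0.000211. Cd80, the other CD28 ligand of the list, was 5.92, 6.04 and 5.17 in NB_FACS, 5.44, 5.85 and 4.95 in NB_Control, 4.88, 5.17 and 3.46 in NB_Stim and 6.70 and 6.47 in A_FACS. The first of its 2 probes was above background on 1 of 3 NB_Stim arrays. The gene was not called in culture (-0.30, adjusted p = 0.666) or with the cytokines (-0.91, adjusted p = 0.367), but the latter was called with the replicate block (adjusted p = 0.0465), as was NB_Stim against NB_FACS (-1.20, adjusted p = 0.06, with the block 0.00286). Cd40, the receptor that T cells engage, was 6.99 ± 0.55 in NB_FACS and 6.99 ± 0.05 in NB_Control and was not called. The probe behind these values is annotated to a non-coding RefSeq transcript of the gene. Its other probe, annotated to a coding transcript, was above background on 0 arrays and was not used.

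Of the remaining targets Gpr84, a receptor for medium-chain fatty acids, fell most in culture. It was 11.08, 10.86 and 10.995 in NB_FACS, 5.87, 5.98 and 5.64 in NB_Control, 7.74, 7.57 and 7.20 in NB_Stim and 9.40 and 10.09 in A_FACS, 4 groups without overlap. The culture difference was -5.15, SE 0.21, adjusted p = 3.99e-07 and the cytokine difference 1.67, SE 0.21, adjusted p = 0.00232, and both of its probes gave the same signs (-5.51 and -4.78, then 1.76 and 1.59). NB_Stim was still lower than NB_FACS (-3.47, adjusted p = 3.07e-06). Ptgs2, which encodes cyclooxygenase-2, was 9.55, 9.62 and 9.05 in NB_FACS, 11.25, 11.20 and 11.23 in NB_Control, 11.39, 11.66 and 10.74 in NB_Stim and 8.20 and 8.81 in A_FACS. It rose in culture (1.82, SE 0.26, adjusted p = 0.000559) and its cytokine difference was 0.04, adjusted p = 0.977.

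Tnfaip2, an early TNF-induced gene, was 9.99, 9.97 and 10.51 in NB_FACS, 9.96, 10.01 and 10.30 in NB_Control, 8.91, 8.79 and 8.68 in NB_Stim and 8.88 and 9.06 in A_FACS. NB_Stim and A_FACS were low and the other groups high. It was not called in culture (-0.06, adjusted p = 0.834), and fell with the cytokines (-1.30, SE 0.18, adjusted p = 0.00375) and in adult cells (-1.19, adjusted p = 0.00239). Of its 3 probes 2 gave cytokine differences of -1.71 and -1.66, whereas the other gave -0.54 (adjusted p = 0.195), and the same probe gave -0.17 (adjusted p = 0.619) in adult cells. Ccrl2, a chemerin-binding receptor, was well above background on 1 of 3 arrays in each cultured group and was not called (-0.76, adjusted p = 0.256 in culture).

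The second comparison asked what the cytokines did to the list in culture. NB_Stim differed from NB_Control in 7 of the 39 genes, 6 lower (Il6, Casp4, Casp1, Tnfaip2, Nfkbie and Irak3) and 1 higher (Gpr84). That is 17.9% of the list, 15.4% lower and 2.56% higher, where 3.40% of all genes were called, 1.40% higher and 2.00% lower. At an unadjusted p under 0.05 in limma 16 passed, but the share of all genes at that threshold is not given here. The median difference was -0.21, against 0.0 for all genes, and 26 of the 39 differences were below 0. With the replicate number as a block the count was 12, since Birc3, Cd80, Myd88, Osm and Tnip3 were added. The share of all genes called in that fit is not given here. Replicates 1 and 2 of each cultured group were closer to each other than the sorted pairs were, with an SD of their differences over all genes of 0.262 in NB_Control and 0.295 in NB_Stim against 0.395 in NB_FACS and 0.542 in A_FACS. When they were averaged, a setting added after the data were seen, 1 gene was called, Il6. None of the 22 genes lowered in culture other than Gpr84 was called higher with the cytokines, whereas Il6, Casp1 and Irak3, raised in culture, were called lower. These comparisons share the NB_Control arrays, so a high or low array there moves both in opposite directions.

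**Figure D5:**
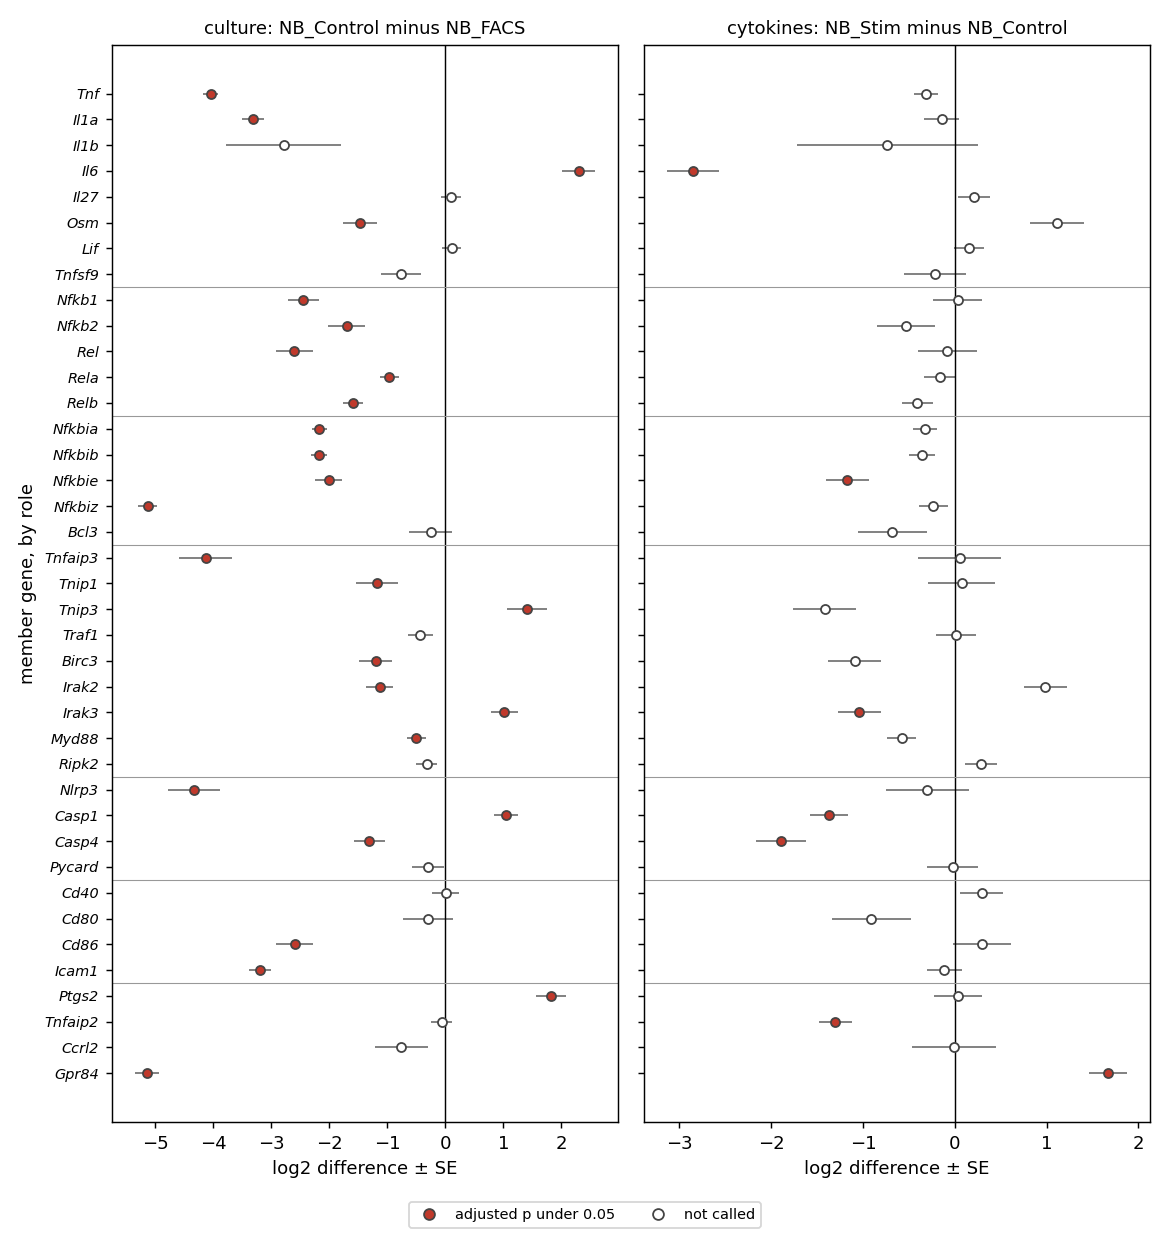
Log2 differences ± SE of the 39 genes, by role, for NB_Control minus NB_FACS (left) and NB_Stim minus NB_Control (right). Filled points had an adjusted p under 0.05 in limma. On the left 22 filled points lie below 0 and 5 above, and on the right 6 below and 1 above.

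Against NB_FACS the stimulated cells were still different in 23 of the 39 genes, 22 lower and 1 higher (Ptgs2), with a median of -1.20 against 0.11 for all genes. Among all genes 31.1% were called, 15.9% higher and 15.1% lower. Nfkbiz (-4.72 with its measured first probe, and at least 64.6-fold lower with the second), Nlrp3, Tnf (-4.36), Tnfaip3 (-4.08), Il1b, Gpr84, Icam1 (-3.31), Casp4 (-3.20) and Nfkbie (-3.18) were the genes lower by at least 3 units, next to Il1a with its unequal probes. Of these calls 21 were kept under every alternative, the exceptions being Il1b and Tnip1.

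The third comparison was of adult and newborn sorted cells. Here 10 of the 39 genes were called, 7 higher and 3 lower, or 25.6%, where 22.7% of all genes were, 9.75% higher and 12.9% lower. The share of the list that was called is thus close to that of all genes. Il6, Nlrp3, Osm, Rel, Casp4, Birc3 and Rela were higher in A_FACS and Gpr84, Tnfaip2 and Traf1 lower, and the median was 0.37 against -0.01 for all genes. With 75th percentile scaling in place of quantile normalisation the split of 10 calls was 5 higher and 5 lower, and the median 0.09. The count was 3 (Il6, Osm and Tnfaip2) without A_FACS replicate 1. Against the cultured groups the adult cells differed in 29 genes (24 higher and 5 lower, 40.8% of all genes) for NB_Control and in 28 (26 higher and 2 lower, 40.2% of all genes) for NB_Stim.

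Further genes of the pathway were counted from 5 lists of receptors, adaptors and ligases, kinases, brakes and other targets, with 79 of 85 genes tested. In culture 41 were called (51.9%, where 29.7% of all genes were), 30 lower and 11 higher. The largest falls were Dusp1, a phosphatase that switches off p38 and JNK (-3.27, adjusted p = 1.42e-05), Csf1, the gene of macrophage colony-stimulating factor (-2.77, adjusted p = 0.000564), and the IL-18 receptor subunit Il18rap, which was above background on none of the NB_Control arrays and at least 5.96-fold higher in NB_FACS (adjusted p = 0.000153). The largest rises were Usp18, a brake on interferon signalling (3.51, adjusted p = 0.000277), Osmr, the receptor of oncostatin M (3.46, adjusted p = 3.97e-05), and Clec4e, a lectin receptor (2.41, adjusted p = 0.00861). The receptor Osmr thus rose where its ligand Osm fell, and which cells held either transcript was not tested.

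With the cytokines 4 of the 79 were called (5.06%, where 3.40% of all genes were) and all were lower, namely Dusp1 (-1.16, adjusted p = 0.0389), the proteoglycan gene Sdc4 (-1.13, adjusted p = 0.0154), the autophagy receptor gene Sqstm1 (-0.86, adjusted p = 0.0161) and Nod1 (-0.67, adjusted p = 0.0304). The count was 9 with the replicate block, and 0 without NB_Control replicate 1 or 2 or NB_Stim replicate 1, with cultured replicates 1 and 2 averaged, and by Tukey's test after correction, so that all 4 calls ended there. Against NB_FACS 44 were called in NB_Stim (55.7%, where 31.1% of all genes were), 37 lower and 7 higher, led by Dusp1 (-4.43), the IL-1 receptor antagonist gene Il1rn (-4.02) and Il18rap (1 of 3 NB_Stim arrays above background) below, and Usp18 (3.11), Osmr (3.08) and Ikbkg, the gene of the kinase regulator NEMO (1.76), above. In A_FACS against NB_FACS 22 were called (27.8%, close to the 22.7% of all genes), 13 higher and 9 lower, and 6 without A_FACS replicate 1. Sdc4 (-3.65), Il1rn (-3.26) and Clec4e (-2.42) fell most, and Usp18 (2.34), Zfp36 (1.97) and Dusp1 (1.39) rose most.

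Other lists differed between the groups as well. Genes known to respond to enzymatic dissociation, such as Fos, were all lower in NB_Control than in NB_FACS (21 of 21 tested genes called), and 15 of 21 were higher in A_FACS. Their summed normalised signal was 283000 to 387000 in NB_FACS, 58700 to 62100 in NB_Control, 51800 to 58300 in NB_Stim and 835000 to 998000 in A_FACS. In culture the sum was lower, as were 22 of the 39 NF-κB genes (56.4%, where 13.9% of all genes were lower). In adult cells it was higher, where 7 of the 39 were called higher and 3 lower (25.6% called, close to the 22.7% of all genes). The part of this response in these differences was not tested. Dusp1 and Zfp36 stand in that list as well as among the brakes. No transcription inhibitor was used during digestion.

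Markers of other cells differed too, and their part in the results was not tested either. Microglial markers summed to 166000 to 190000 in NB_FACS, 38900 to 66300 in NB_Control, 142000 to 153000 in NB_Stim and 277000 to 301000 in A_FACS, with the defining gene P2ry12 above background on all 11 arrays (group means 12.95, 6.51, 7.54 and 14.17 on the log2 scale). Fibroblast markers summed to 2260 to 2450 in NB_FACS, 43500 to 51800 in NB_Control, 25800 to 55600 in NB_Stim and 6060 to 8790 in A_FACS, and 7 of 10 were higher in NB_Control than in NB_FACS. In A_FACS the sum was higher than in NB_FACS, but 2 of 10 genes were called higher and 5 lower. From NB_FACS to A_FACS the means of Acta2 (10.31 to 12.46) and Tagln (7.65 to 10.36) rose, whereas those of Col1a1 (7.11 to 3.89) and Col3a1 (6.47 to 1.72) fell. Erythroid markers were at 135000 to 178000 in NB_FACS, 65.7 to 76.4 in NB_Control, 72.5 to 84.9 in NB_Stim and 8080 to 24100 in A_FACS, with Hbb-bt not above background on any cultured array. Endothelial markers were at 5560 to 7670 in NB_FACS, 1210 to 1370 in NB_Control, 2240 to 2730 in NB_Stim and 7510 to 14900 in A_FACS. From NB_Control to NB_Stim 1 of 9 tested was called higher and 0 lower, with 6 differences above 0 and 3 below. The mean of Flt1 rose there from 7.61 to 10.39. The defining gene Cldn5 was at group means of 11.99, 4.77, 4.12 and 12.46 in that order of groups. Border macrophage markers summed to 12500 to 14900, 45700 to 89700, 20500 to 34100 and 1290 to 1670 in the same order. The defining gene Mrc1 was above background throughout (group means 13.15, 13.33, 8.08 and 7.87). The sum hides a split, since of 9 tested 3 were called higher and 3 lower in NB_Control than in NB_FACS. From NB_FACS to NB_Control the means of Pf4 (10.42 to 15.13) and Ms4a7 (7.46 to 14.13) rose. Those of Lyve1 (7.82 to 3.02), Cd163 (5.11 to 2.45) and Cbr2 (9.09 to 5.94) fell. Neutrophil and monocyte markers ranged from 856 to 6540 in NB_FACS, 1460 to 1540 in NB_Control, 2070 to 2550 in NB_Stim and 2680 to 5330 in A_FACS, and the defining gene Ly6g was not matched to a probe. The sum of the oligodendrocyte lineage markers rose with the cytokines, at 567 to 601 in NB_FACS, 1220 to 1720 in NB_Control, 8160 to 12300 in NB_Stim and 472 to 844 in A_FACS. Most of the NB_Stim sum was Cspg4, and the mean of Mbp did not rise (8.70 in NB_Control and 8.67 in NB_Stim). Of 4 tested, 1 was called higher in NB_Stim than in NB_Control and 4 higher than in NB_FACS, with Cspg4, a gene of glial progenitors and pericytes, at group means of 7.85, 9.54, 13.10 and 8.03 in that order of groups and the defining gene Olig1 at 5.66, 6.71, 7.65 and 5.24. Astrocyte markers were at 2410 to 2650, 3600 to 3730, 3090 to 4190 and 854 to 1300. Of 8 tested, 3 were called higher in NB_Control than in NB_FACS and 4 lower in A_FACS than in NB_FACS. With the cytokines 0 were called (1 at an unadjusted p under 0.05 in limma), where 3.40% of all genes were. Neuron markers were at 6190 to 6510, 4210 to 4560, 4290 to 5180 and 4670 to 7220, with 2 of 8 lower in NB_Control. Lymphocyte markers stayed between 214 and 317 on all arrays.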

How the data were processed

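RNA was measured on 11 single-colour Agilent arrays. The authors deposited scanner files with a background-subtracted signal intensity per spot from Agilent Feature Extraction (version 11 in the submitters' processing notes), and a series table holding the same intensity values (62927 entries compared, 0 differing beyond a relative tolerance of 1e-05). Here the deposited intensity was taken to log2, spots with outlier flags were left out, repeated spots averaged, and probes quantile normalised as in the study's methods. Probes were named through RefSeq accessions (36264 of 60037 probes, 23329 symbols), kept when some group had the probe well above background on all its arrays, and averaged per gene. Before normalisation arrays of slide 1 had a 75th percentile signal of 174 to 316, those of slide 2 one of 446 to 511, and 66.9% to 80.5% of probes were above background. The number of arrays limits the precision, and no spot was saturated.

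Each of 19572 genes was fitted in limma 3.58.1 (R 4.3.3) with 1 mean per group (7 residual and 2.69 prior degrees of freedom), with two-sided tests of 6 pairwise comparisons. For a group not above background, a bound used the lowest signal well above background on each array. Alternatives changed the scaling, background correction, filter, choice of probe, source table, blocks, samples and test (Tukey's adjustment, as in the study's methods), or left out 1 array. The code was tested on simulated data. Replicate numbers were checked on deviations from group means over all genes. They correlated in all 9 pairs of newborn arrays with the same number (0.112 to 0.489). Slide 2 held all arrays with number 3, and a difference between slides alone can give such correlations. They therefore cannot show that the numbers pair these arrays, and no label says so. The replicate block was kept as an alternative setting only. For A_FACS and NB_FACS the values were 0.168 and -0.0692, and no pairing was taken.

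The 43 genes, the other lists and the tests were chosen with earlier results of these data known. In each role the 3 genes with the largest culture or cytokine difference, and others called with the cytokines, are given array by array, and 3 rises and falls of the other pathway genes. Il1b, Osm and genes lost or gained in alternatives were named after their values were seen. Promoter sequences are RefSeq's (GRCm38.p6), matched for 33 of 43 genes. Figures were drawn with matplotlib 3.10.9.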

Additional observations from a re-analysis of the deposited data

How the results depend on the processing

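Of 156 pairs of a gene and a comparison, 67 were called, and 44 of these were called under all 24 alternatives (19 of 27 in culture, 1 of 7 with the cytokines, 21 of 23 for NB_Stim against NB_FACS and 3 of 10 for A_FACS against NB_FACS). A further 56 pairs were called in none, and 25 of those changed sign in at least 1. Where a count moved, the cause was not tested unless fewer arrays or probes make it plain.

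For NB_Stim against NB_Control 7 members were called, 13 with the slide as a block, 13 on slide 1 alone, 14 by Tukey's test at 0.05, 2 by Tukey's test after Benjamini-Hochberg correction and 1 with cultured replicates 1 and 2 averaged. For the other pathway genes these counts were 4, then 12, 9, 8, 0 and 0, where the averaging was chosen after seeing the data. For A_FACS against NB_FACS 10 members were called, 19 on slide 1 alone and 3 by Tukey's test after correction, and of the other pathway genes 22, then 36 on slide 1 alone, 36 with the slide block, 12 with only the groups compared in the fit and 6 by Tukey's test after correction. For NB_Control against NB_FACS 41 of the other pathway genes became 27 by Tukey's test after correction. The share of all genes called under each of these settings, and under those below, is not given here. A changed count may therefore not be particular to these genes.

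The replicate number as a block treats newborn arrays with the same number as pairs, which was not shown. It gave 12 members (2 higher, 10 lower) and 9 other pathway genes with the cytokines. It gave 36 other pathway genes for A_FACS against NB_FACS, where the numbers do not pair the arrays. In the latter it added Ptgs2, Tnf and Tnfsf9, and for NB_Stim against NB_FACS Cd80, Il6 and Tnfsf9 (adjusted p = 0.0377). It moved no other count of calls by over 1.5 times.

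With 1 array left out the members called numbered 25 to 29 in culture, 5 to 10 with the cytokines, 21 to 25 for NB_Stim against NB_FACS and 3 to 13 for A_FACS against NB_FACS, where 3 was without A_FACS replicate 1. The other pathway genes numbered 35 to 43, 0 to 7, 36 to 48 and 6 to 24, where 6 was again without A_FACS replicate 1, and 0 with the cytokines was without NB_Control replicate 1 or 2 or NB_Stim replicate 1. Without NB_Stim replicate 2 that count was 1, and 2 without NB_FACS replicate 2, NB_Control replicate 3 or NB_Stim replicate 3. Il1b with the cytokines ranged from -2.15 without NB_Control replicate 3 to 0.0097 without NB_Control replicate 2.

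Signs turned with the probe. Tnfsf9 was 0.13 in culture and 0.38 for NB_Stim against NB_FACS with its brightest probe, which is its first. The second Il1a probe alone gave 0.18 in culture, 0.24 for NB_Stim against NB_FACS and -0.47 for A_FACS against NB_FACS, and the first Ripk2 probe 0.024 in culture. Low signals in culture limit Nlrp3, Ccrl2, the second Nfkbiz probe, the first Tnfaip3 probe and a Cd80 probe, and 2 or 3 arrays per group limit all tests.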
